A study of Mus musculus with 36 samples.

Results

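Hippocampal mini-slices of the mouse were sampled 60 min after chemical long-term potentiation (LTP), and the response of each transcript on the ribosomes of excitatory neurons was set against its response in total RNA. All 12 libraries of 60 min were used, out of 36 in the series, and every gene that passed the filter on low counts was tested for a different response in the 2 RNA populations. The LTP slices had been in forskolin for 5 min and then in forskolin with raised KCl and Ca2+ in medium without Mg2+ for a further 5 min. The basal slices were time-matched and received the DMSO vehicle. Both came from the same male and female C57BL/6 mice, 8 to 12 weeks old and heterozygous for RiboTag and Camk2a-cre, so that all groups carry both alleles. There were 3 LTP and 3 basal replicates, each a pool of slices from 4 mice, and each slice homogenate gave 1 TRAP-seq library and 1 RNA-seq library. TRAP-seq (translating ribosome affinity purification) sequenced the RNA bound to HA-tagged ribosomes, which Camk2a-cre restricts to excitatory neurons. RNA-seq took total RNA of every cell in 10% of the homogenate, so that a difference between the populations can lie in ribosome binding or in the cell types sampled, and these cannot be told apart here. Likewise, fewer cells of a type and less RNA per cell cannot be told apart in such bulk RNA. The dentate gyrus had been cut away. The labels of TRAP-seq basal replicate 1 disagree, with 60 min in its title and 30 min in its time field, and the title was used.

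Late-phase LTP needs new RNA and new protein. Forskolin raises cAMP, which activates protein kinase A and the transcription factor CREB, and CREB binds the cAMP response element in the promoters of many immediate early genes. These genes encode transcription factors such as Fos and effectors that act at synapses or on signaling, and their messages are made, loaded on ribosomes and degraded within minutes to hours.

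The libraries held 40125975 to 42838998 reads on genes in the TRAP-seq LTP group, 38514352 to 39435363 in the TRAP-seq basal group, 32452243 to 45345681 in the RNA-seq LTP group and 35320250 to 45775102 in the RNA-seq basal group. Replicates of a group had Pearson correlations of log2 CPM (counts scaled to an equal library size) across genes of 0.9904 to 0.9949. The precursor of ribosomal RNA, Rn45s, took at most 0.197% of the reads at 60 min. In basal slices, 11 of 11 excitatory neuron markers were tested, with a median TRAP-seq over RNA-seq ratio of 1.61. The median was 0.0714 for 11 astrocyte markers, 0.0856 for 12 microglia markers, 0.0817 for 11 oligodendrocyte markers, 0.0987 for 12 endothelial and mural markers and 0.0973 for 10 interneuron markers. No marker of these lists was at 0 reads in all 6 TRAP-seq libraries. The 5 markers of dentate granule cells, whose region had been removed, had a median ratio of 1.09 and summed to 532 to 590.2 CPM by TRAP-seq in LTP slices and 522 to 559 CPM in basal slices. Of these sums Calb1 alone made up 318.3 to 362.5 CPM in LTP slices and 312.6 to 340 CPM in basal slices. Which cells these reads came from was not tested.

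The TRAP-seq response exceeded the RNA-seq response for 15 transcripts and fell short of it for 7, out of 15712 tested. The measure was the change of the log2 ratio of TRAP-seq over RNA-seq, LTP minus basal, here called the difference, with the homogenate as a block. A transcript was called at an adjusted p under 0.1 (edgeR quasi-likelihood test, Benjamini-Hochberg over all genes tested) and an absolute difference above 0.4. The calls were 0.0955% of all genes in the higher direction and 0.0446% in the lower direction, and the median difference of all genes was 0.0028. With the size threshold left aside, 52 transcripts passed. In each of the 22 genes the log2 ratios of the 3 LTP homogenates lay outside those of the 3 basal homogenates, which over all genes held for 14.9%, and the 3 pairs of equal number agreed in sign. The genes were called from the same libraries, so neither is separate evidence for the calls. LTP and basal slices of equal replicate number were taken to come from the same mice. The test was therefore repeated with the replicate number as a further block, and then called 122 transcripts (0.776%), 55 higher and 67 lower, among them all 22. The count rested in part on single homogenates. It was 12 without LTP replicate 3, 34 without LTP replicate 1 and 106 without basal replicate 2, and lay between 17 and 25 in the other 3 omissions.

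**Figure D1:**
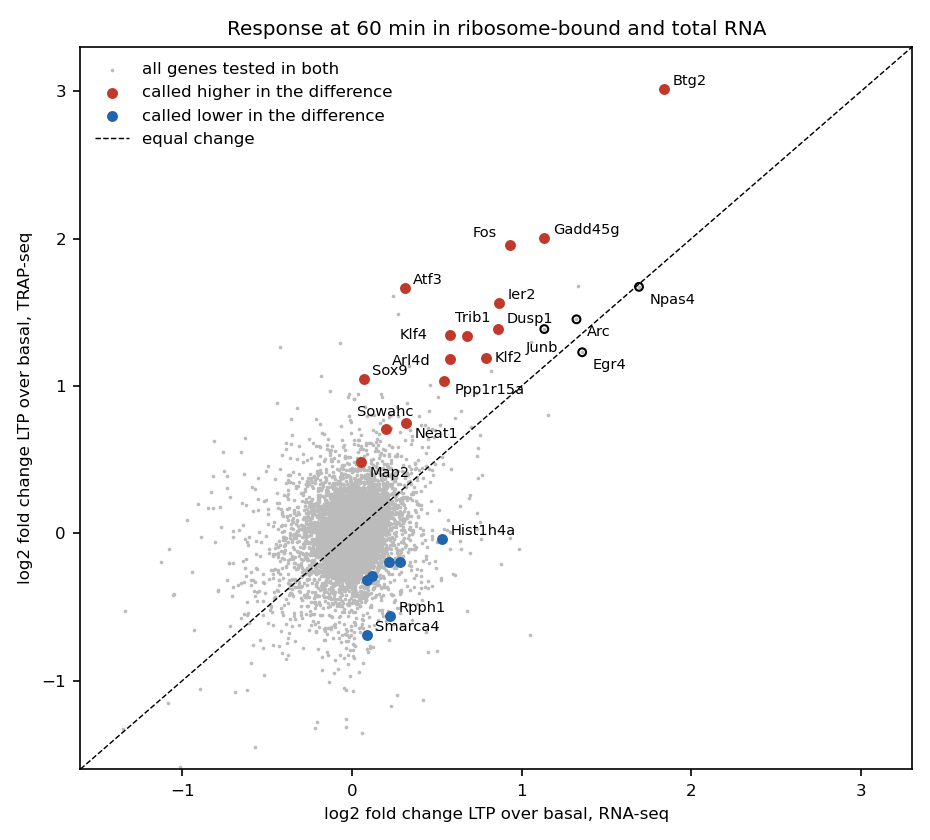
Log2 fold change of LTP over basal slices at 60 min by TRAP-seq (vertical axis) and by RNA-seq (horizontal axis). Each grey point is 1 of 14551 genes tested in both, with 6 more outside the axes, and the dashed line marks equal change. The 15 genes called higher in the difference (red) lie above the line and the 7 called lower (blue) below it, while Arc, Npas4, Egr4 and Junb (open circles) lie near it.

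Each of the 15 transcripts in the higher group had a fold change above 0 in both populations. By TRAP-seq alone all 15 were called higher in LTP slices, where 69 of 14651 transcripts were called (0.471%), and by RNA-seq alone 10 of the 15, where 35 of 15592 were called (0.224%). With the replicate block the totals were 264 by TRAP-seq and 56 by RNA-seq. These 2 comparisons share their libraries with the difference, so their calls are not separate evidence for it. Of the 7 in the lower group, TRAP-seq alone called Smarca4 lower and RNA-seq alone called Hist1h4a higher.

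Immediate early transcription factors led the higher group. Of the 26 on the list, 5 were called higher (Atf3, Fos, Klf4, Ier2 and Klf2), none was called lower and 21 did not pass. The median difference of the list was 0.20. At an unadjusted p under 0.05, 14 were higher, which held for 4.32% of all genes, and none was lower, which held for 5.10%. By TRAP-seq alone 15 of the 26 were called higher and by RNA-seq alone 12.

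Fos (chromosome 12, 85473890 to 85477274 in GRCm38) encodes the AP-1 subunit c-Fos. It had 666, 774 and 764 CPM by TRAP-seq in LTP slices, against 170.5, 201 and 197 CPM in basal slices. By RNA-seq it had 954, 952 and 929 CPM in LTP slices, against 473, 534 and 482 CPM in basal slices. In neither population did the LTP and basal groups overlap, and the gap was wider on the ribosomes. The log2 fold change was 1.95 ± 0.077 by TRAP-seq and 0.93 ± 0.052 by RNA-seq, and the difference 1.03 ± 0.071 (SE, adjusted p = 9.95e-07, edgeR). In basal slices the TRAP-seq level of Fos was 0.379 times its RNA-seq level, and LTP multiplied that ratio by 2.04.

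Atf3 (chromosome 1, 191170296 to 191183333), a bZIP factor induced by stress and activity, had the largest difference of the 22. It had 76.5, 109 and 93.3 CPM by TRAP-seq in LTP slices and 24.1, 31.9 and 32.1 CPM in basal slices. By RNA-seq the values were 83, 82.1 and 84.9 CPM in LTP slices and 66.2, 61.5 and 74 CPM in basal slices. The TRAP-seq groups were far apart and the RNA-seq groups only just separate. Its log2 fold change was 1.66 ± 0.14 by TRAP-seq and 0.31 ± 0.065 by RNA-seq (adjusted p = 0.141, edgeR), and the difference 1.34 ± 0.12 (SE, adjusted p = 4.06e-05, edgeR).

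Klf4 and Klf2 encode zinc finger factors of one family, and Ier2 a nuclear immediate early protein. The log2 TRAP-seq over RNA-seq ratio of Klf4 was -0.62, -0.22 and -0.31 in LTP homogenates and -1.18, -1.12 and -1.11 in basal homogenates (difference 0.76 ± 0.093, SE, adjusted p = 0.000812, edgeR, with log2 fold changes of 1.34 by TRAP-seq and 0.58 by RNA-seq). That of Ier2 was -0.72, -0.51 and -0.36 in LTP homogenates and -1.27, -1.27 and -1.10 in basal homogenates (difference 0.69 ± 0.10, SE, adjusted p = 0.00575, edgeR, with log2 fold changes of 1.56 by TRAP-seq and 0.87 by RNA-seq). Both were below their RNA-seq level on ribosomes in every homogenate, and less so after LTP. Klf2 was the exception among the 15 in that its basal ratio was above 0. It was 1.13, 1.10 and 1.20 in LTP homogenates and 0.65, 0.81 and 0.76 in basal homogenates (difference 0.40 ± 0.08, SE, adjusted p = 0.0665, edgeR, with log2 fold changes of 1.19 by TRAP-seq and 0.79 by RNA-seq), close to the size threshold. Klf2 and Klf4 are also expressed in endothelial cells, whose 12 markers summed to 16.2 to 18.4 CPM by TRAP-seq in LTP slices and 15.2 to 18.3 CPM in basal slices, ranges that overlap. By RNA-seq the same markers summed to 95.02 to 108.2 CPM in LTP slices and 98.15 to 115.6 CPM in basal slices. Which cells the reads of Klf2 and Klf4 came from was not tested.

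Npas4, Egr4 and Junb were called higher in both populations, and their differences did not pass. Npas4, a neuronal bHLH-PAS factor, had 219, 236 and 266 CPM by TRAP-seq in LTP slices and 73.3, 72.4 and 80.2 CPM in basal slices. Its RNA-seq values were 151, 168 and 191 CPM in LTP slices and 45.5, 60.5 and 51.8 CPM in basal slices. The LTP and basal groups lay far apart in each population, and the difference was -0.023 ± 0.088 (SE, adjusted p = 0.959, edgeR). Egr4 differed by -0.14 ± 0.079 (SE, adjusted p = 0.635, edgeR) and Junb, an AP-1 subunit, by 0.25 ± 0.075 (SE, adjusted p = 0.273, edgeR). Egr2, a zinc finger factor of the Egr family, had an adjusted p of 0.0938 (edgeR) at 0.34 and missed the size threshold. A p that misses the threshold does not show equal responses.

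Effectors of neuronal activity gave 4 of the 22, all higher, from a list of 25 with 21 not passing. With the replicate block 5 were called higher, the fifth being Tiparp, a mono-ADP-ribosyltransferase, at 0.52 (adjusted p = 7.88e-09, edgeR), against 0.52 ± 0.12 (SE, adjusted p = 0.128) without that block. The median of the list was 0.11. At an unadjusted p under 0.05, 10 of its members were higher, against 4.32% of all genes, and none lower, against 5.10%. Btg2 (chromosome 1, 134074865 to 134079155), an antiproliferative protein that recruits deadenylases to messages, had the smallest p of all genes. It had 329.8, 417 and 399.5 CPM by TRAP-seq in LTP slices and 44.2, 52 and 45.7 CPM in basal slices, an 8.07-fold change. By RNA-seq it had 211, 242 and 262 CPM in LTP slices and 64.8, 74 and 61.2 CPM in basal slices, a 3.57-fold change. In basal slices its ribosome-bound level was below its RNA-seq level in all 3 homogenates, and in LTP slices above it in all 3. The difference was 1.17 ± 0.066 (SE, adjusted p = 9.66e-08, edgeR).

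Gadd45g, a growth arrest and stress sensor, had log2 ratios of 0.46, 0.78 and 0.78 in LTP homogenates and -0.26, -0.18 and -0.14 in basal homogenates (difference 0.87 ± 0.085, SE, adjusted p = 5.90e-05, edgeR, with log2 fold changes of 2.00 by TRAP-seq and 1.13 by RNA-seq). Trib1, a pseudokinase scaffold for ubiquitination, had -0.039, 0.23 and 0.011 in LTP homogenates and -0.65, -0.52 and -0.60 in basal homogenates (difference 0.66 ± 0.079, SE, adjusted p = 0.000754, edgeR, with log2 fold changes of 1.34 by TRAP-seq and 0.68 by RNA-seq). Arl4d, a small GTPase of the Arf family, had -0.22, -0.21 and 0.035 in LTP homogenates and -0.83, -0.95 and -0.43 in basal homogenates (difference 0.61 ± 0.11, SE, adjusted p = 0.0459, edgeR, with log2 fold changes of 1.18 by TRAP-seq and 0.58 by RNA-seq). Gadd45g changed from below to above its RNA-seq level in all replicates, while Trib1 and Arl4d came near to it. Arc, which regulates AMPA receptor endocytosis, was called higher in both populations with no call for the difference. Its TRAP-seq values were 796, 829 and 878 CPM in LTP slices and 311, 283 and 319.8 CPM in basal slices. Its RNA-seq values were 589.9, 626 and 686 CPM in LTP slices and 243, 265 and 253 CPM in basal slices. The LTP and basal groups of Arc did not overlap in either population, and the difference was 0.13 ± 0.068 (SE, adjusted p = 0.574, edgeR).

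**Figure D2:**
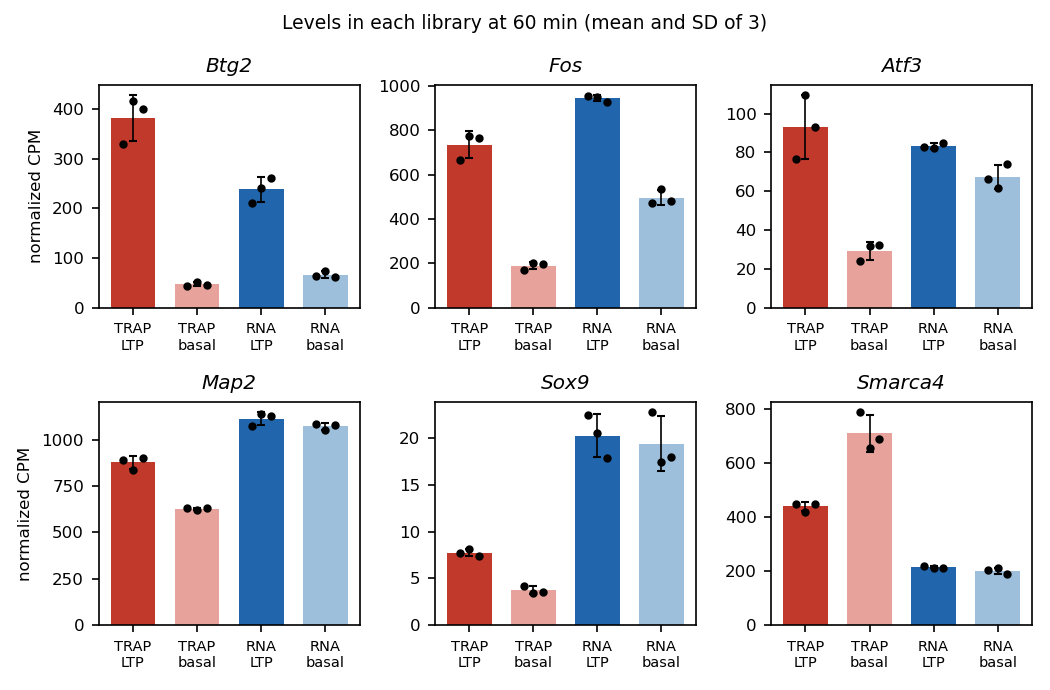
Normalized CPM of 6 genes in each of the 12 libraries at 60 min, in the groups TRAP-seq LTP, TRAP-seq basal, RNA-seq LTP and RNA-seq basal. Bars are means of 3 replicates, error bars SD and points single libraries. Btg2, Fos and Atf3 change more by TRAP-seq than by RNA-seq, Map2 and Sox9 are higher in LTP slices by TRAP-seq with overlapping groups by RNA-seq, and Smarca4 is lower in LTP slices by TRAP-seq with overlapping groups by RNA-seq.

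Signaling and stress messages added Dusp1 and Ppp1r15a. Dusp1, the MAP kinase phosphatase that ends ERK, JNK and p38 signaling, had 75.2, 77.7 and 77.7 CPM by TRAP-seq in LTP slices and 29.8, 29.7 and 28.5 CPM in basal slices. In total RNA it had 79.4, 81.4 and 77.4 CPM in LTP slices and 44, 47.6 and 39.8 CPM in basal slices, and the difference was 0.53 ± 0.069 (SE, adjusted p = 0.00183, edgeR). It was the only one called of the 11 MAP kinase phosphatases, whose median was -0.0084, and the only one of 20 listed cAMP and CREB target genes, whose median was 0.08. That list of 20 does not hold Fos, Btg2, Arl4d or Ppp1r15a, so its count does not cover all CREB targets. Ppp1r15a (GADD34) directs the phosphatase that reverses phosphorylation of eIF2alpha and so restores translation. Its log2 ratio was 0.17, 0.49 and 0.38 in LTP homogenates and -0.23, -0.13 and -0.078 in basal homogenates (difference 0.49 ± 0.079, SE, adjusted p = 0.0158, edgeR, with log2 fold changes of 1.03 by TRAP-seq and 0.54 by RNA-seq). Of 21 cytokines, chemokines and NF-kB targets none was called, with a median of 0.15. Within it Zfp36, which destabilizes AU-rich messages, was at 0.41 ± 0.12 (SE, adjusted p = 0.254, edgeR), and was called with the replicate block (adjusted p = 0.0072, edgeR). None of 7 tested feedback inhibitors of MAP kinase was called, and Errfi1, an inhibitor of EGF receptor kinases, was at 0.26 ± 0.062 (SE, adjusted p = 0.134, edgeR).

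The forskolin step of the protocol made the cAMP response element of interest, and its full 8-base palindrome TGACGTCA was looked for from 250 bases before to 50 after the starts of each gene. The promoter table used, from RefSeq, covered 11 of the 15 higher genes, and 4 of these held the full element. It was in 396 of the 11684 genes tested at 60 min that the table covered (3.39%), and in 549 of all 27025 genes of the promoter table (2.03%). The 5-base element TGACG, on either strand and so also inside the palindrome, was in 8 of the 11, in 3918 of the 11684 tested genes (33.5%) and in 6228 of the 27025 (23.0%). The 8 were the 4 with the palindrome and Fos, Atf3, Klf4 and Klf2. Of the 3 lower genes that the table covered none held the full element and 1, Wdr81, held the 5-base one. The promoters of Sox9, Trib1, Ier2, Neat1, Hist1h4d, Rpph1, Hist1h4a and Hist1h4f were not analysed here. Shown are the bases around the full element in those 4 promoters, 5′ to 3′ on the strand of the gene in build GRCm38.p6, with the element in capitals. The windows are Btg2 chr1:134079288-134079347 (minus strand), Dusp1 chr17:26508582-26508641 (minus strand), Ppp1r15a chr7:45526269-45526306 (minus strand) and Arl4d chr11:101665489-101665540 (plus strand). A match is a description of the sequence, and binding was not measured. All 15 higher genes were also called higher by TRAP-seq alone, and the share among other genes raised by LTP was not counted. Whether the element goes with the difference or with the induction was not tested.
Btg2: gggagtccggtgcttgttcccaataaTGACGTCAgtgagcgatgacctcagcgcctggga
Dusp1: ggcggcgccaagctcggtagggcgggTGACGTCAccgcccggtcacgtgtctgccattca
Ppp1r15a: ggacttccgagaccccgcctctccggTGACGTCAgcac
Arl4d: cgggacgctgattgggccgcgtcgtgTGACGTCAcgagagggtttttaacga
The element began 166 bases before the start of Btg2, 143 before that of Dusp1, 12 before that of Ppp1r15a and 26 before that of Arl4d. The differences of these genes were 1.17 for Btg2, 0.53 for Dusp1, 0.49 for Ppp1r15a and 0.61 for Arl4d.

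Map2, Sox9, Sowahc and Neat1 rose by TRAP-seq, and RNA-seq alone called none of them. Map2 (chromosome 1, 66175202 to 66442583), the dendritic microtubule-associated protein of neurons, had 892, 838 and 901 CPM by TRAP-seq in LTP slices and 629, 622 and 632 CPM in basal slices. Its RNA-seq values were 1072, 1136 and 1128 CPM in LTP slices and 1087, 1052 and 1080 CPM in basal slices. The TRAP-seq groups were well apart and the RNA-seq groups overlapped, and the difference was 0.43 ± 0.058 (SE, adjusted p = 0.00243, edgeR). It was the only one called of 19 microtubule-associated proteins and motors, whose median was 0.017.

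Sox9 (chromosome 11, 112782210 to 112787757), a transcription factor of astrocytes and neural progenitors, had 7.68, 8.14 and 7.38 CPM by TRAP-seq in LTP slices and 4.22, 3.43 and 3.55 CPM in basal slices. Its RNA-seq values, 22.4, 20.5 and 17.8 CPM in LTP slices and 22.7, 17.4 and 17.9 CPM in basal slices, overlapped. The difference was 0.99 ± 0.11 (SE, adjusted p = 0.000377, edgeR), on a basal TRAP-seq level of 0.192 times that by RNA-seq. The other 10 astrocyte markers did not pass, and the 11 summed to 617 to 732 CPM by TRAP-seq in LTP slices and 589.9 to 687 CPM in basal slices, ranges that overlap. Which cells the reads of Sox9 came from was not tested.

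Sowahc, a protein with ankyrin repeats, had log2 ratios of -0.56, -0.35 and -0.36 in LTP homogenates and -1.02, -0.81 and -0.97 in basal homogenates (difference 0.51 ± 0.087, SE, adjusted p = 0.0231, edgeR, with log2 fold changes of 0.71 by TRAP-seq and 0.20 by RNA-seq). Neat1, the long noncoding RNA that scaffolds nuclear paraspeckles, had -0.40, -0.25 and -0.10 in LTP homogenates and -0.65, -0.65 and -0.75 in basal homogenates (difference 0.43 ± 0.09, SE, adjusted p = 0.0865, edgeR, with log2 fold changes of 0.75 by TRAP-seq and 0.32 by RNA-seq). It is not a translated message, and it was the only one called of 11 nuclear and noncoding long RNAs, of which 9 had a difference above 0 (median 0.11). Rian, a noncoding RNA of the imprinted Dlk1-Dio3 domain, was at 0.19 ± 0.067 (SE, adjusted p = 0.379, edgeR).

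**Figure D3:**
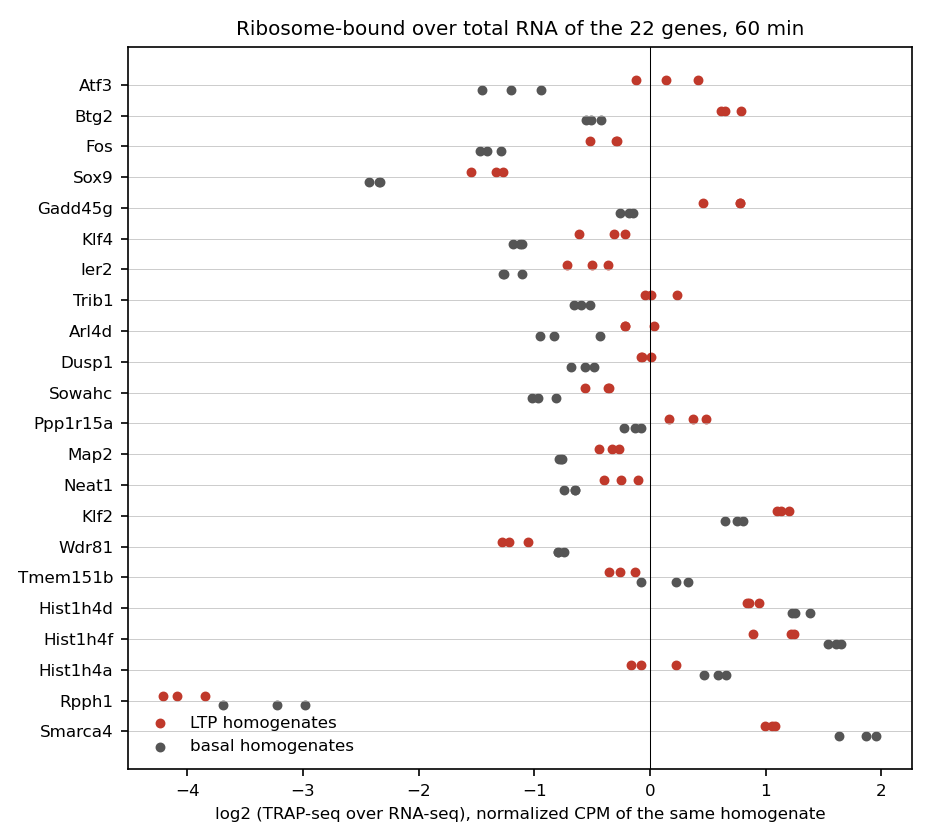
Log2 ratio of TRAP-seq over RNA-seq (normalized CPM of the same homogenate, horizontal axis) for the 22 called genes, with 3 LTP homogenates (red, upper row) and 3 basal homogenates (grey, lower row) for each gene. The LTP and basal points of each gene do not overlap, and the LTP points lie to the right in 15 genes and to the left in 7.

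In the lower group, Smarca4 had the smallest p. Smarca4 (chromosome 9, 21616106 to 21704230) encodes BRG1, an ATPase of the BAF chromatin remodelling complex. It had 450.4, 421 and 450.3 CPM by TRAP-seq in LTP slices and 788, 657 and 688 CPM in basal slices. The RNA-seq values were 217, 211 and 213 CPM in LTP slices and 203, 212 and 188 CPM in basal slices. The TRAP-seq groups were far apart and the RNA-seq groups overlapped, and the difference was -0.78 ± 0.074 (SE, adjusted p = 5.06e-05, edgeR). Its TRAP-seq level at 60 min stood apart from the other times in both treatments. Scaled over all 36 libraries, it was 415, 389.6 and 416 CPM in LTP slices and 724, 607 and 633 CPM in basal slices at 60 min. At 30 min it was 160.2, 166 and 150 CPM in LTP slices and 161, 148 and 162 CPM in basal slices, and at 120 min 166, 187 and 155 CPM in LTP slices and 170.2, 172 and 150.5 CPM in basal slices. The RNA-seq level stayed between 149 and 199 CPM over all times and both treatments. What set the higher TRAP-seq level in the 6 libraries of 60 min was not tested.

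Of 23 BAF subunits Smarca4 was the only one called, and the median was -0.034. Smarca2, the alternative ATPase of the complex, had 389.8, 374 and 369 CPM by TRAP-seq in LTP slices and 515, 470.5 and 432 CPM in basal slices. Its RNA-seq values were 233, 254 and 233 CPM in LTP slices and 235, 248 and 223 CPM in basal slices. The TRAP-seq groups did not overlap, and its difference of -0.35 ± 0.068 (SE, adjusted p = 0.0625, edgeR) missed the size threshold only. Arid1b, a DNA-binding subunit, was at -0.32 ± 0.077 (SE, adjusted p = 0.14, edgeR).

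Replication-dependent histone messages, which end in a stem-loop in place of a poly(A) tail, lay mostly below 0. Of 68 such symbols 56 passed the filter, and 51 of these had a difference below 0, with a median of -0.27 against 0.0028 over all genes. Called were 3, all lower (Hist1h4a, Hist1h4d and Hist1h4f), and 9 with the replicate block, which called 0.776% of all genes. At an unadjusted p under 0.05, 21 of the 56 were lower, which held for 5.10% of all genes, and none higher, which held for 4.32%. The median log2 fold change of the list was -0.13 by TRAP-seq and 0.14 by RNA-seq, on opposite sides of 0. By protein, 12 of 13 H4 genes were lower at that p (median -0.41), 4 of 10 H3 genes (median -0.35), 2 of 5 H1 genes (median -0.21), 1 of 12 H2A genes (median -0.23) and 2 of 16 H2B genes (median -0.17).

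Hist1h4d had 151, 148 and 121 CPM by TRAP-seq in LTP slices and 160.4, 161 and 159 CPM in basal slices. By RNA-seq it had 78.8, 82.1 and 67.8 CPM in LTP slices and 61.5, 67.5 and 67.8 CPM in basal slices. The TRAP-seq groups did not overlap and the RNA-seq groups met at 67.8 CPM. Neither population alone passed, and the difference was -0.41 ± 0.065 (SE, adjusted p = 0.0112, edgeR). Hist1h4a was called by RNA-seq alone at a log2 fold change of 0.53 ± 0.089, and was at -0.039 by TRAP-seq (difference -0.57 ± 0.11, SE, adjusted p = 0.0623, edgeR). Hist1h4f had log2 ratios of 1.22, 1.24 and 0.89 in LTP homogenates and 1.61, 1.65 and 1.54 in basal homogenates (difference -0.47 ± 0.10, SE, adjusted p = 0.0865, edgeR, with log2 fold changes of -0.20 by TRAP-seq and 0.28 by RNA-seq). Hist1h4h and Hist1h4c passed the adjusted p and missed the size threshold, at -0.38 and -0.34. The H4 genes are near-identical copies. The coding sequences of 11 in the Hist1 cluster, 312 bases each, were 92.3 to 100% identical in pairs, and how reads that fit several copies were counted is not given in the sources used here. The values of single H4 genes are therefore uncertain. As copies may share reads, the count of H4 genes that were lower is not a count of independent genes.

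Rpph1 (chromosome 14, 50807447 to 50807771), the RNA subunit of ribonuclease P, is a small nuclear noncoding RNA. It had 54.2, 54.3 and 38.8 CPM by TRAP-seq in LTP slices and 75.9, 91.3 and 49.8 CPM in basal slices. In total RNA it had 923, 781 and 716 CPM in LTP slices and 710.5, 720 and 642 CPM in basal slices. In each population the groups overlapped, while the ratios of the homogenates did not (difference -0.75 ± 0.13, SE, adjusted p = 0.0241, edgeR). Its basal TRAP-seq level was 0.101 times its RNA-seq level. Whether its TRAP-seq reads came from RNA bound to ribosomes was not tested. Wdr81, a WD repeat protein of endosomal traffic, had log2 ratios of -1.05, -1.22 and -1.28 in LTP homogenates and -0.79, -0.80 and -0.75 in basal homogenates (difference -0.40 ± 0.084, SE, adjusted p = 0.0828, edgeR, with log2 fold changes of -0.29 by TRAP-seq and 0.12 by RNA-seq). Tmem151b, a transmembrane protein, had -0.13, -0.36 and -0.26 in LTP homogenates and 0.23, -0.075 and 0.33 in basal homogenates (difference -0.41 ± 0.089, SE, adjusted p = 0.0938, edgeR, with log2 fold changes of -0.32 by TRAP-seq and 0.091 by RNA-seq). For both, removing the trend with transcript length and GC content brought the difference under the size threshold, to -0.33 for Wdr81 and -0.33 for Tmem151b.

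No interneuron, excitatory neuron or choroid plexus marker was called. Of 10 interneuron markers 5 had a difference above 0 and 5 below 0, with a median of -0.089. At an unadjusted p under 0.05, 4 were lower, which held for 5.10% of all genes, and 0 higher, which held for 4.32%. Gad2, a GABA-synthesizing enzyme, was at -0.43 ± 0.11 (SE, adjusted p = 0.15, edgeR), and Slc32a1, the vesicular GABA transporter, at -0.90 ± 0.24 (SE, adjusted p = 0.192, edgeR). These 2 were called lower with the replicate block (adjusted p = 0.00189 and 0.000101, edgeR). The 10 markers summed to 65.8 to 73.4 CPM by TRAP-seq in LTP slices and 68.6 to 79.7 CPM in basal slices, ranges that overlap. Excitatory neuron markers had a median of 0.0061 over 11, with Neurod6, a bHLH factor of pyramidal neurons, at 0.20 ± 0.06 (SE, adjusted p = 0.273, edgeR). Ttr, a marker of choroid plexus, had 0.178, 0.387 and 0.893 CPM by RNA-seq in LTP slices and 79.3, 0.212 and 1.72 CPM in basal slices. The high value was that of basal replicate 1 alone, and without that replicate the test called 25 transcripts. The 8 choroid plexus and ependymal markers summed to 264 to 290 CPM by RNA-seq in LTP slices and 279 to 405 CPM in basal slices.

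Further gene families had medians between -0.069 and 0.11, and none of their members was called without the replicate block. Of 77 subunits of oxidative phosphorylation 60 were above 0, with a median of 0.05. Of 78 potassium channel genes 54 were below 0, with a median of -0.046, and Kcnq3, a subunit of the M current, was at -0.22 ± 0.061 (SE, adjusted p = 0.213, edgeR). The median was -0.0019 for 78 cytosolic ribosomal proteins, 0.015 for 23 glutamate receptor genes, 0.026 for 49 translation factors and 0.11 for 15 heat shock proteins and chaperones, of which 13 were above 0. Among the chaperones Hsp90b1, of the endoplasmic reticulum, was at 0.19 ± 0.069 (SE, adjusted p = 0.394, edgeR). At an unadjusted p under 0.05, 4.32% of all genes were higher and 5.10% lower. For chaperones the counts were 3 higher and 0 lower, for translation factors 6 and 1, and for oxidative phosphorylation 5 and 1. For potassium channels they were 2 higher and 9 lower, for ribosomal proteins 1 and 2, and for glutamate receptors 0 and 0. Of 24 spectrins, ankyrins and actin-binding proteins 6 were lower and none higher at an unadjusted p under 0.05 (median -0.069). With the replicate block, which called 0.776% of all genes, 3 of them were called lower. Myo6, an unconventional myosin, was at -0.94 ± 0.33 (SE, adjusted p = 0.354, edgeR), and its TRAP-seq values were 13.3, 26.5 and 10.5 CPM in LTP slices and 15.9, 46.3 and 36.1 CPM in basal slices. They overlapped, and basal replicate 1 was the low one of its group.

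**Figure D4:**
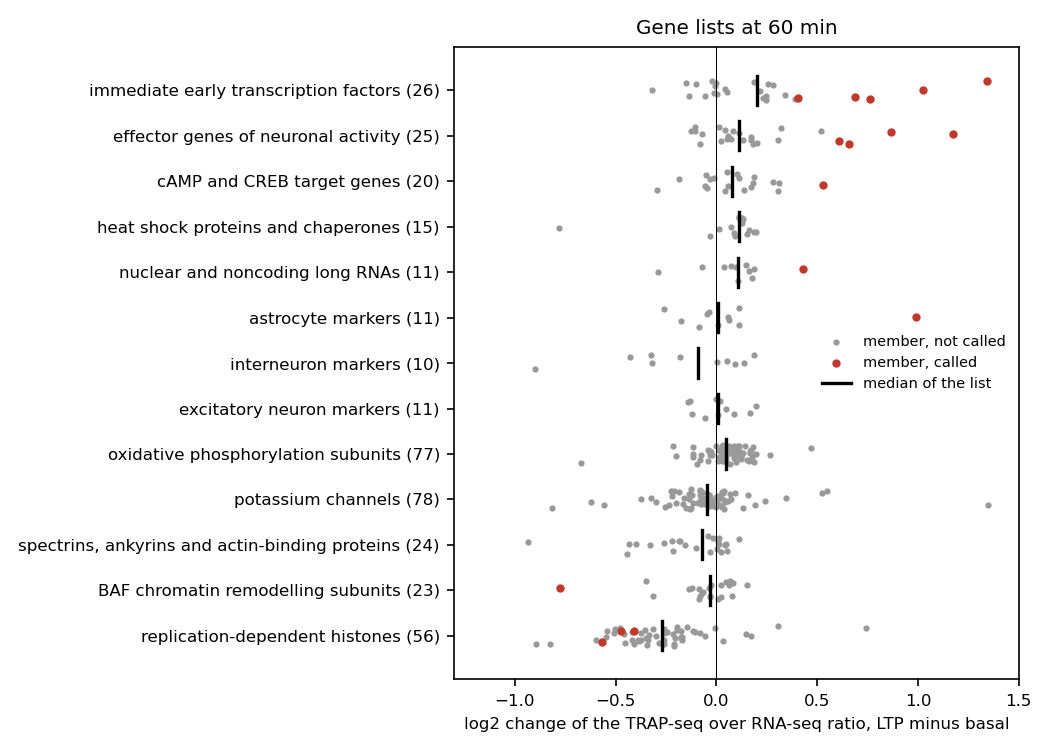
Change of the log2 TRAP-seq over RNA-seq ratio, LTP minus basal, at 60 min (horizontal axis) for the tested members of 13 gene lists, with their number in parentheses. Points are genes, red where called, and black bars are medians. Replication-dependent histones have the lowest median of these lists and immediate early transcription factors the highest.

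The same test at the other times called 64 of 15336 transcripts at 30 min (0.417%; 127 with the replicate block) and 52 of 15405 at 120 min (0.338%; 210 with the replicate block). Of the 22 genes called at 60 min, 5 were also called at 30 min (Btg2, Fos, Gadd45g, Map2 and Ppp1r15a) and 10 at 120 min (Btg2, Fos, Atf3, Sox9, Trib1, Klf4, Dusp1, Map2, Ier2 and Sowahc). Btg2, Fos and Map2 were called at all 3 times. The difference of Map2 (with its SE) was 0.47 ± 0.069 after 30 min, 0.43 ± 0.058 after 60 min and 0.57 ± 0.093 after 120 min. That of Fos was 0.76 ± 0.091 after 30 min, 1.03 ± 0.071 after 60 min and 1.04 ± 0.084 after 120 min. Atf3 had 0.25 ± 0.14 after 30 min, 1.34 ± 0.12 after 60 min and 1.68 ± 0.11 after 120 min, and was not called at 30 min. Ier2 had 0.39 ± 0.14 after 30 min, 0.69 ± 0.10 after 60 min and 1.08 ± 0.18 after 120 min. Trib1 had 0.18 ± 0.078 after 30 min, 0.66 ± 0.079 after 60 min and 1.08 ± 0.11 after 120 min. For neither did the step between 60 and 120 min pass its test. In the lower group Hist1h4a had -0.17 ± 0.15 after 30 min, -0.57 ± 0.11 after 60 min and -1.05 ± 0.27 after 120 min, and Rpph1 -0.50 ± 0.27 after 30 min, -0.75 ± 0.13 after 60 min and -0.33 ± 0.26 after 120 min. A difference of the same sign as at 60 min was found in 20 of the 22 at 30 min and in 18 at 120 min. The exceptions were Smarca4 and Wdr81 at both times, and Arl4d and Neat1 at 120 min. The share of all genes that kept their sign was not counted, so these counts have no background to be read against.

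Whether a difference itself changed with time was tested in 1 fit of all 36 libraries. From 30 to 60 min 1 of 15909 transcripts passed (0.00629%) and between 60 and 120 min 2 (0.0126%). Smarca4 passed in both, and Rgs9, which was not called at 60 min, in the second. For Smarca4 the step was -0.85 ± 0.12 for 60 minus 30 min (SE, adjusted p = 0.004, edgeR). It was -0.80 ± 0.12 for 60 minus 120 min (SE, adjusted p = 0.0062, edgeR). None of the other 21 genes passed, so that a call at 1 time and not at another is not shown to be a change with time. For Atf3 the step was 1.10 ± 0.21 for 60 minus 30 min, with an adjusted p of 0.169 (edgeR). Libraries of 30 min were read single-end and the others paired-end. In the 3 TRAP-seq basal libraries of 120 min Rn45s took 40.6 to 61.4% of the reads, and its part in the values of that time was not tested.

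**Figure D5:**
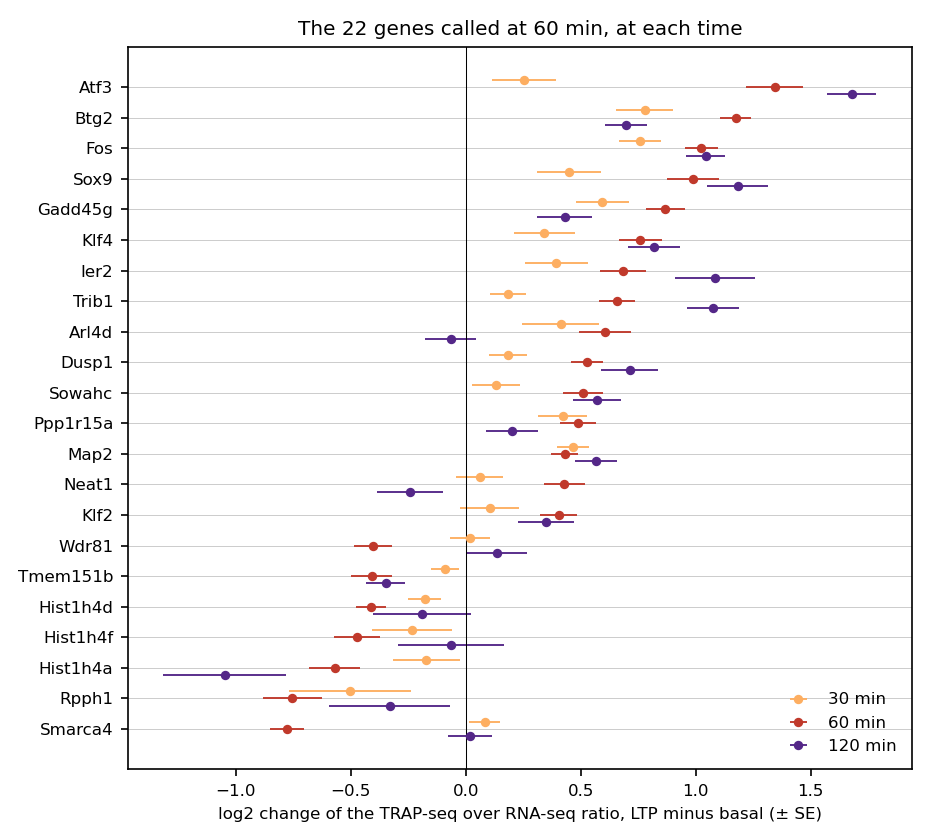
Change of the log2 TRAP-seq over RNA-seq ratio, LTP minus basal (horizontal axis), at 30, 60 and 120 min for the 22 genes called at 60 min. Points are estimates from 12 libraries per time and bars SE. Smarca4 is below 0 at 60 min and within 0.1 of 0 at the other times, and Btg2, Fos and Map2 are above 0 at all 3.

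Whichever homogenate was left out, 10 of the 22 calls held. These were Btg2, Fos, Atf3, Smarca4, Gadd45g, Sox9, Trib1, Klf4, Dusp1 and Ier2. Without LTP replicate 3 the calls of Hist1h4d, Ppp1r15a, Sowahc, Rpph1, Arl4d, Hist1h4a, Klf2, Wdr81, Neat1, Hist1h4f and Tmem151b were lost. Those of Hist1h4d, Arl4d, Hist1h4a, Klf2, Wdr81, Neat1, Hist1h4f and Tmem151b were lost without basal replicate 1, and those of Sowahc, Hist1h4a, Klf2, Wdr81, Neat1, Hist1h4f and Tmem151b without basal replicate 3. Without LTP replicate 2 those of Sowahc, Klf2, Wdr81, Neat1 and Tmem151b were lost, and without LTP replicate 1 those of Map2, Hist1h4a and Klf2. Map2 then had a difference of 0.39 and missed the size threshold only. The highest adjusted p over the 6 omissions was 0.144 for Ppp1r15a, 0.142 for Hist1h4d, 0.196 for Sowahc, 0.211 for Rpph1, 0.322 for Arl4d, 0.387 for Hist1h4a, 0.39 for Klf2, 0.422 for Hist1h4f, 0.423 for Wdr81, 0.449 for Neat1 and 0.57 for Tmem151b (edgeR).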

How the data were processed

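TRAP-seq and RNA-seq libraries were made from the same slice homogenates, with depletion of ribosomal RNA and no selection for poly(A), and the kit did not mark strand. The authors aligned the reads to mm10 with STAR and deposited raw counts per gene in 1 table for each time (versions are not given in the sources used here, nor is the handling of reads that fit several genes). Columns with the authors' own fold changes and p-values were not used. Of 24060 genes in each table, 27 symbols had been turned into dates. Of these, 25 were restored from their Entrez ID, and 2 were left out, with at most 0.0039% of the reads.

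Counts at 60 min were filtered (filterByExpr), scaled by TMM and fitted with edgeR 4.0.16 (quasi-likelihood test, R 4.3.3), with the homogenate and the RNA population as terms. Adjusted p-values are Benjamini-Hochberg over all genes tested. The thresholds, 0.1 for the adjusted p and 0.4 for the log2 difference, are those of the study. LTP against basal was fitted in each population without a block. Times were compared in 1 fit of the 36 libraries. SE values were derived from the F statistic, and CPM values are scaled by TMM. Log2 ratios of a homogenate use a prior count of 0.5.

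The study's methods give 4 mice for each biological replicate, with slices for each treatment. LTP and basal slices of equal replicate number were therefore taken to come from the same mice. The methods do not state this for the numbers in the labels. The deviations of the log2 ratios from their group means correlated at 0.393, 0.563 and 0.16 for equal numbers and between -0.49 and 0.109 for unequal ones (genes with a mean of at least 10 CPM), so fits with the replicate number as a block are given beside the results they change.

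The genes named are those called at 60 min, up to 4 members of each list by smallest p, the 10 with the smallest adjusted p by TRAP-seq and by RNA-seq, and markers. Rgs9 and Tiparp were added to these once their values were known. The comparison, the gene lists and this rule were chosen with earlier results of these data known. Gene positions are from RefSeq, as are promoter sequences (GRCm38.p6). Transcript lengths, GC content and H4 coding sequences are from GENCODE M21. All are on the build of the files. Alternatives were RLE scaling, TMM within each population, other filters, DESeq2 1.42.0, limma-trend (limma 3.58.1), no block, a replicate block, removal of the trend with transcript length and GC content, no size threshold and each replicate left out. Leaving out Rn45s and the replicate block at 30 and 120 min were added after seeing the data, as were counts at an unadjusted p under 0.05 and counts of ratios that do not overlap.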

Additional observations from a re-analysis of the deposited data

Results flagged for a closer look

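At 60 min the LTP response differed between TRAP-seq and RNA-seq for 22 transcripts by the edgeR test of the difference itself. Smarca4 and Rgs9 had differences that depended on time in the fit of all libraries. For Smarca4 the step was -0.85 for 60 minus 30 min and -0.80 for 60 minus 120 min (log2), with 12 libraries at each time. For Rgs9, a regulator of G protein signaling of striatal neurons and photoreceptors, the step was 3.26 ± 0.34 for 60 minus 120 min (SE, adjusted p = 1.59e-05, edgeR). Rgs9 did not pass at 60 min (0.10, adjusted p = 0.808, edgeR), and the 120 min value rests on the TRAP-seq basal libraries in which Rn45s took 40.6 to 61.4% of the reads. The part of that share in the result was not tested.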

How the results depend on the processing

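The 22 calls of the difference at 60 min were the same 22 genes with RLE scaling, with TMM within each population and without Rn45s. The count was also 22 with limma-trend (16 higher, 6 lower), of which 21 were shared and Tmem151b was lost. It was 19 with a mean of at least 100 reads and 15 with DESeq2. DESeq2 gave no adjusted p for 9 of the 22 and called the other 13. The count was 48 with no filter on low counts (23 higher, 25 lower), 12 without the homogenate block (11 higher, 1 lower), 50 after removal of the length and GC trend and 52 without a size threshold. With the replicate block it was 122, and 118 with the block and the length and GC trend removed. Leaving out 1 replicate at a time gave 12 to 106 calls. LTP against basal with the replicate block called 264 transcripts by TRAP-seq and 56 by RNA-seq. At 30 min the 64 calls became 113 with no filter and 127 with the replicate block, and at 120 min the 52 became 117 with no filter and 210 with the block. With no filter, 23 transcripts passed for 60 minus 30 min and 9 for 60 minus 120 min. The causes of these shifts were not tested.

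Of 887 values of single genes under these alternatives, 802 kept their direction and side of the threshold, 53 of called genes lost the call and 28 of genes not called gained it, 9 of those with a replicate block. The difference of Npas4 (-0.023) turned positive in 4 of them, to 0.013 after removal of the length and GC trend, also with the replicate block (0.013), to 0.055 without basal replicate 1 and to 0.032 without basal replicate 3, and ranged from -0.16 to 0.055 when 1 replicate was left out at a time. With 3 replicates per group, p-values of the difference measure the spread of the TRAP-seq over RNA-seq ratio between homogenates. LTP and basal homogenates of a number were taken to share mice, and the test without the replicate block treats them as independent. Log2 differences fell with transcript length (rho = -0.144) and GC content (rho = -0.194) across 10583 genes, which are not independent replicates. Among H4 copies the counts cannot be assigned with certainty.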

Other observations

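In basal slices at 60 min, 8972 transcripts differed between TRAP-seq and RNA-seq by the same rule, 4165 higher and 4807 lower by TRAP-seq (edgeR). Of the 15 transcripts in the higher group, 14 stood below their RNA-seq level in basal slices. Over all genes the median basal ratio was 1.004. The basal libraries also enter the difference, so a low basal ratio is not separate evidence for a call. Replication-dependent histones stood above their RNA-seq level in basal slices, at a median of 2.32 times. Cytokines, chemokines and NF-kB targets stood below theirs, at a median of 0.123 times. At 30 min the 24 spectrins, ankyrins and actin-binding proteins had a median difference of 0.25, against -0.069 at 60 min and 0.11 at 120 min. The 77 oxidative phosphorylation subunits tested at 60 min had medians of -0.17 at 30 min (76 tested), 0.050 at 60 min and -0.079 at 120 min. The steps of these lists between times were not tested.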
